A study of Tribolium castaneum with 183 samples.

Results

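Whether full-sib families of the red flour beetle Tribolium castaneum differed in how their gene expression responded to drought was tested in 95 sequenced females, the Control and Dry ones of a series with 4 conditions. These were the 47 Control females (33 °C, 70% r.h.) and the 48 Dry females (33 °C, 30% r.h.). The family of a female was read as the number before the hyphen in her name. There were 12 families, and each was split over both conditions with 4 females per family and condition, except family 293 with 3 Control females. All females came from the wild-derived Cro1 strain, which had been kept at the Control condition in the laboratory. They had been placed in their condition as eggs and stayed in it for life. They were reared on wheat flour with yeast. Each was mated with 1 male, laid eggs for 1 week in her condition about 8 weeks after pupal sorting, and was then frozen and extracted whole. The 45 Hot females (37 °C, 70% r.h.) and 43 Hot-Dry females (37 °C, 30% r.h.) of the same families gave a repeat of the drought contrast at 37 °C in other females.

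The change of a genotype's phenotype between environments is called plasticity, and differences among families in that change are the family-by-environment interaction. When all families respond alike, the family means in both environments are shifted in parallel. When they do not, the average over families can be near 0 for genes that rise in some families and fall in others. Insects in dry air hold water with the cuticle, a chitin and protein matrix, and through excretion and food, and a laying female spends much of her transcription on vitellogenin, the yolk protein precursor that the fat body makes and the oocytes take up through receptors.

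The libraries held between 5406991 and 15533288 counted reads (median 8903053). Levels are given as cpm, counts scaled to a fixed library total after normalization by TMM, and at the median depth 3 reads are 0.337 cpm. Vg1 and Vg2, the vitellogenin genes, took between 3.24% and 30.1% of the counts of a female (median 18.5%). The values fell to 3.24% in Control female 799-2 and 3.46% in Control female 293-4, below all the others. All 7 ovary and germ line markers (vasa, piwi, spindle E and 4 vitellogenin receptor genes) were above 0 in every female. Their summed family means lay between 1120 and 1500 cpm in Control and between 1150 and 1500 cpm in Dry. A family was the offspring of 1 mating pair. Females of 1 family in 1 condition had developed in 1 vial, and each vial held the eggs of another laying period. A family difference in the response and a difference between vials therefore cannot be told apart, and the p-values measure the spread between females within vials. As whole bodies were sequenced, fewer cells of a type and less RNA per cell cannot be told apart either.

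The response to drought differed among families in 2720 of 11837 genes tested, or 23.0% (joint test of 11 interaction terms, edgeR's quasi-likelihood F test, adjusted p ≤ 0.05). At an unadjusted p under 0.05 there were 4509 genes (38.1%). The average over families was called for 491 genes in the same fit (4.15%), and 222 of these also had an interaction, which is 8.16% of the interaction genes. When each female was left out in turn, 1804 of the 2720 genes were called in all 95 fits, and the number called lay between 2252 and 3479, the highest without Control female 103-4. Without the 2 Control females of low vitellogenin share 2878 genes were called. Fewer females changed the number more. With 1 of the 4 sister numbers left out, and so with up to 24 females fewer, it lay between 836 (without number 2) and 3777 (without number 1).

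The interaction genes fell into several patterns. In 367 of them at least 1 family rose and at least 1 other fell, each past the test within the family. In 818 only rises were called, in 633 only falls, and in 902 no family was called alone. A called response was found in 1 family for 1231 genes, in 2 families for 402, and in 3 or more for 185. The lowest and the highest family response were a median of 1.34 apart on the log2 scale, and in 524 genes the lowest family was below -1 while the highest was above 1. The SD of the 12 family responses had a median of 0.399 over the interaction genes and of 0.275 over all genes tested.

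The spread among families was of like size in both conditions. The SD of the 12 family means had a median of 0.325 in Control and 0.322 in Dry over the interaction genes (log2 cpm), and it was wider in Dry in 43.7% of them, against 47.3% of all genes tested. The order of the families was another matter. The correlation of the family means in Control with those in Dry had a median of 0.277 over the interaction genes and of 0.505 over all genes, a description that follows in part from how these genes were chosen.

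The families contributed unequally. In family 348, 984 genes (8.31% of those tested) responded in its own Dry against Control contrast, 697 of them higher in Dry, and 865 (7.31%) differed from the mean response of the other 11 families. In family 1005, 741 genes (6.26%) responded, 492 of them higher in Dry, and 437 (3.69%) differed from the other families. In family 863, 697 genes (5.89%) responded, but only 134 of them were higher in Dry, and 682 (5.76%) differed from the others. Family 348 thus responded mostly with higher and family 863 mostly with lower expression. In family 103, 103 genes (0.870%) responded and 668 (5.64%) differed from the others.

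The other families had fewer calls. Family 245 had 322 genes (2.72%) in its own contrast and 168 (1.42%) against the others. Family 432 had 152 (1.28%) and 35 (0.296%), and family 710 had 99 (0.836%) and 63 (0.532%). The own contrast of family 293 gave 83 genes (0.701%), and 64 (0.541%) stood apart from the others. Families 496 and 638 gave 59 (0.498%) and 55 (0.465%) genes in their own contrasts, and 55 (0.465%) and 66 (0.558%) against the others. The fewest were found in family 1077, with 29 (0.245%) and 3 (0.0253%), and family 799, with 9 (0.0760%) and 11 (0.0929%). These counts rest on few females. With 1 number of the names left out, that is 1 Control and 1 Dry female per family, they lay between 456 and 791 in family 348, between 267 and 1086 in family 863, between 22 (without number 2) and 1563 (without number 1) in family 1005, between 1 (without number 2) and 2137 (without number 4) in family 103, and between 11 (without number 2) and 2071 (without number 1) in family 432. In family 245 they lay between 50 and 178, in 293 between 1 and 89, in 496 between 0 and 30, in 638 between 2 and 37, in 710 between 10 and 40, in 799 between 0 and 9, and in 1077 between 0 and 114. In family 863 the share of called genes that were higher in Dry was 19.2%, and 47.1% without number 1. In family 1005 it was 66.4%, but 18.2% of 22 genes without number 2 and 28.1% of 32 genes without number 3.

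**Figure D1:**
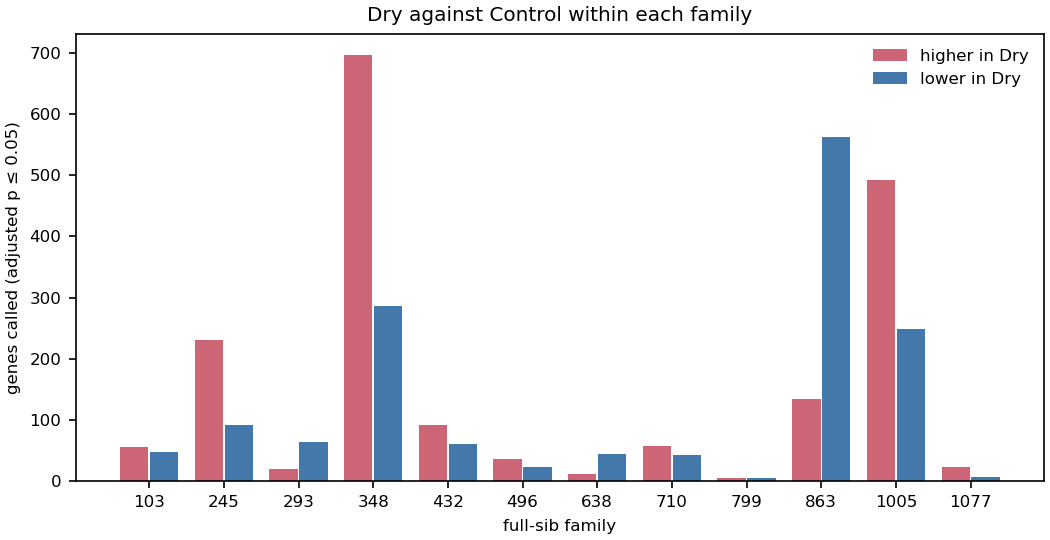
Number of genes called in the Dry against Control contrast of each full-sib family (adjusted p ≤ 0.05), for genes higher in Dry (red bars) and lower in Dry (blue bars), with 4 females per family and condition (3 Control females in family 293). Family 348 has 697 genes higher and 287 lower, and family 863 has 134 higher and 563 lower.

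Some families responded alike and others opposite across the interaction genes. The log2 fold changes of families 245 and 348 had a correlation of 0.647 across the 2720 genes, those of 348 and 799 of 0.594, and those of 863 and 1005 of 0.548. The correlation was -0.420 between 348 and 863, -0.423 between 245 and 863, and -0.452 between 348 and 1005. Over all 11837 genes the same pairs had 0.491, 0.383, 0.349, -0.290, -0.259 and -0.214. These are correlations across genes, which are not independent replicates, and each family has its own Control females.

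**Figure D2:**
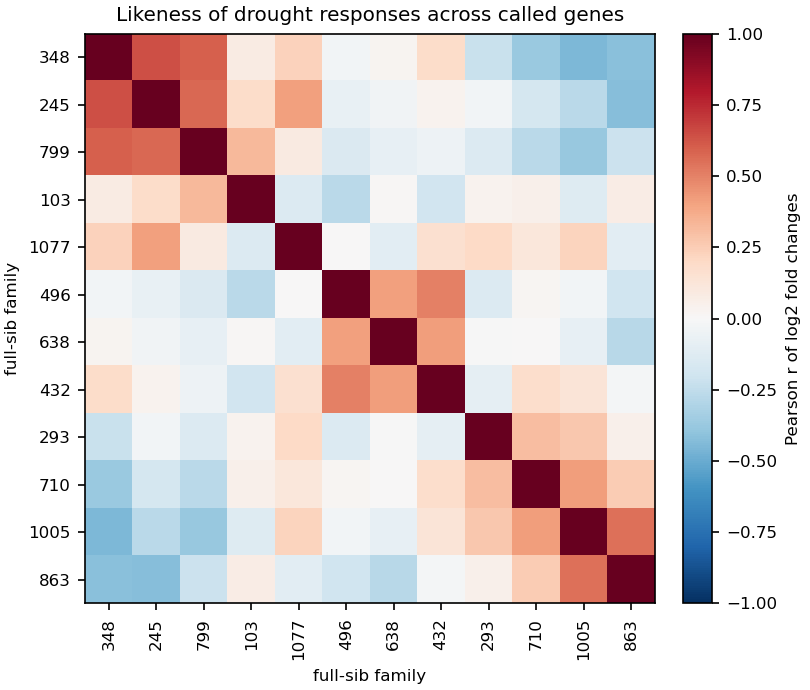
Pearson correlation, across the 2720 interaction genes, of the log2 fold changes (Dry against Control) of each pair of families, from blue (-1) to red (1). The families are ordered after their values: 348, 245 and 799 are alike (0.572 to 0.647), and 348 and 245 are opposite to 863 (-0.420 and -0.423).

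A group in which every gene depended on family was that of 6 genes annotated with hydrolase activity on O-glycosyl compounds, enzymes that split sugar bonds. The study had picked these for a lower average in Dry in the same females. The list is therefore not independent evidence of its direction or of an interaction. All 6 were called (adjusted p between 7.66e-09 and 4.00e-06), against 23.0% of all genes and 45.2% of the 491 genes with a called average. They were called in each of the 31 other fits and in all 95 fits that left out 1 female. All 6 fell in families 863 and 1005, by log2 fold changes between -5.24 and -2.32 and between -4.18 and -1.53. In family 710 all 6 estimates were below 0 and 5 passed the test, whereas in family 348 all 6 estimates were above 0, from 0.97 to 2.60, and 5 passed. None was called in the other 8 families. TC016211 and TC016212, and TC002466 and TC002467, carry neighbouring identifiers. If they are near copies, reads could have been split between them.

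TC016211 shows the pattern in each female. In family 863 it stood at 77.8, 101, 140 and 102 cpm in the 4 Control females and at 4.21, 1.82, 7.17 and 15.3 cpm in the 4 Dry females. In family 1005 it stood at 65.3, 57.5, 57.7 and 79.5 cpm in Control and at 20.8, 8.60, 17.9 and 11.7 cpm in Dry. In family 348 it stood at 8.73, 9.10, 8.51 and 11.3 cpm in Control and at 58.2, 51.6, 56.8 and 57.9 cpm in Dry. In these 3 families no Dry value overlapped a Control value, and the direction was opposite in 348. The log2 fold changes were -3.90 (SE 0.54, adjusted p = 4.06e-07) in family 863, -2.17 (SE 0.49, adjusted p = 0.00651) in family 1005 and 2.60 (SE 0.50, adjusted p = 0.000192) in family 348. In family 710 the Control females had 121, 90.8, 70.7 and 18.3 cpm and the Dry females 15.9, 16.4, 26.5 and 25.4 cpm, so that 1 Control female lay among the Dry ones. In the other 8 families Control and Dry values overlapped, with family responses between -0.77 and 0.85.

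The families at the extremes in this gene changed places between the conditions. In Control the mean of TC016211 was 105 ± 25.8 cpm (SD, n = 4) in family 863 and 9.40 ± 1.27 cpm (SD, n = 4) in family 348. In Dry it was 7.12 ± 5.87 cpm (SD, n = 4) and 56.1 ± 3.07 cpm (SD, n = 4). Family 863 was thus the highest of the 12 in Control and the lowest in Dry, and family 348 the lowest in Control and the highest in Dry. The neighbours of family 348 did not differ from it beyond their spread, 638 with 10.1 ± 1.93 cpm in Control and 799 with 48.9 ± 21.9 cpm in Dry (SD, n = 4). Over all 12 families the correlation of the family means in Control and Dry was -0.38. It was not tested, and it follows in part from how the gene was chosen.

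**Figure D3:**
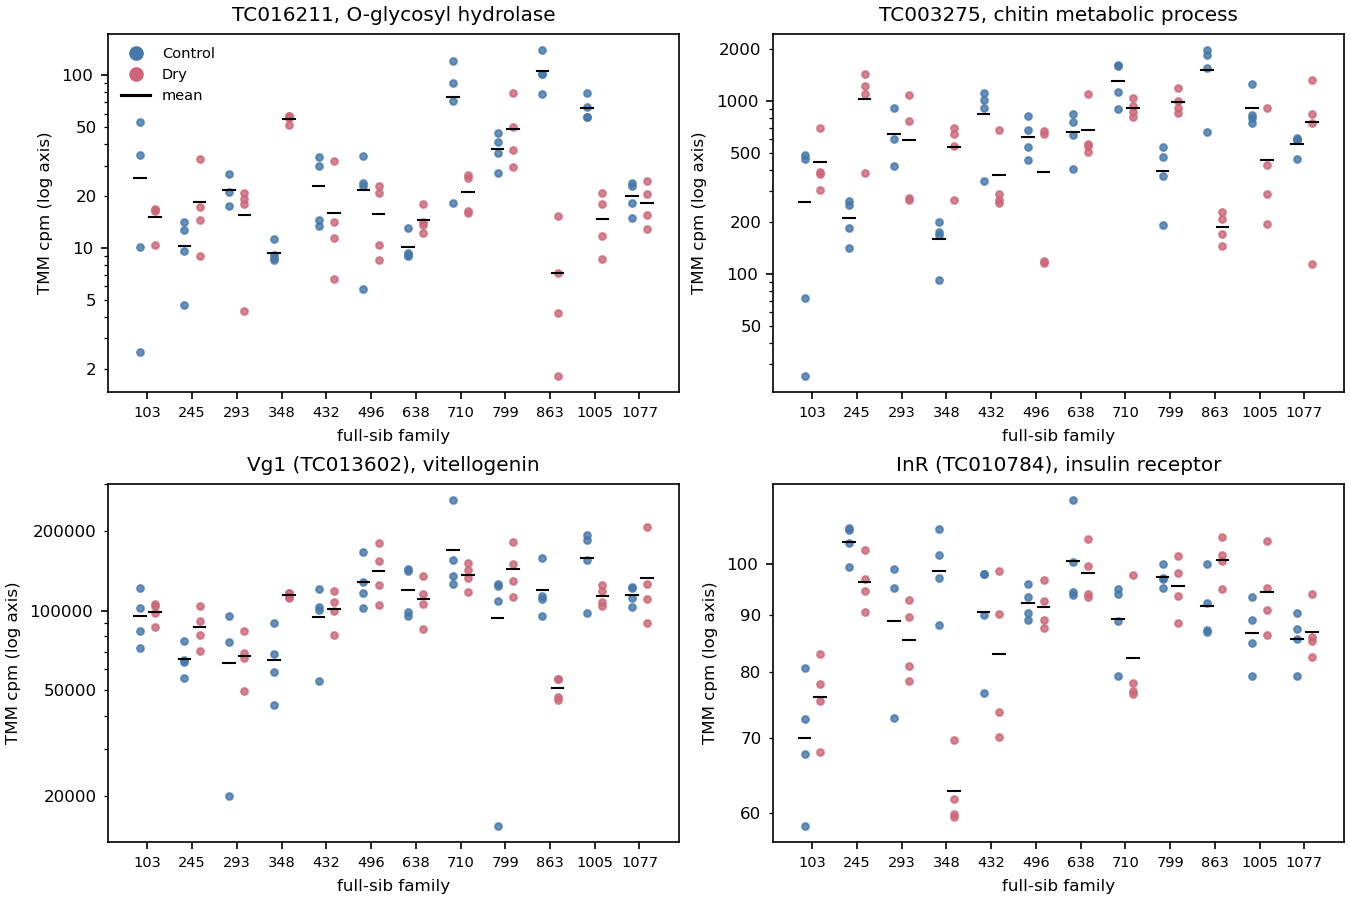
TMM-normalized cpm (log axis) of every Control (blue) and Dry (red) female by family for TC016211, TC003275, Vg1 (TC013602) and InR (TC010784), with black bars for the mean. TC016211 falls from 77.8 to 140 cpm to 1.82 to 15.3 cpm in family 863 and rises from 8.51 to 11.3 cpm to 51.6 to 58.2 cpm in family 348.

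Other genes with small p-values followed the same families. TC001160, annotated with hydrolase activity, stood at 125, 112, 172 and 219 cpm in the Control females of family 863 and at 3.31, 6.11, 8.24 and 22.1 cpm in its Dry females. TC001160 stood in family 348 at 6.07, 5.45, 7.15 and 14.5 cpm in Control and at 56.6, 40.2, 105 and 71.9 cpm in Dry. The log2 fold changes were -3.99 (SE 0.62, adjusted p = 4.42e-06) and 3.07 (SE 0.59, adjusted p = 0.000192), and the interaction had an adjusted p of 1.21e-09. The serine-type endopeptidase gene TC012574, whose annotation is that of protein-splitting enzymes, stood at 126, 158, 260 and 292 cpm in Control and at 15.5, 16.1, 13.6 and 41.1 cpm in Dry in family 863. Its values in family 348 were 24.3, 27.4, 32.8 and 40.1 cpm in Control and 138, 129, 221 and 207 cpm in Dry. Neither gene overlapped between conditions in these families. TC012574 also rose in family 245 by 1.93 and fell by 1.68 in family 1005 (log2). Its average over the 12 families was -0.01.

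Not all genes with small p-values had that pattern. The smallest p-value of all, also adjusted to 1.21e-09, was that of TC003548, which the sources used here do not annotate. It rose in families 245, 348 and 1077 (0.62, 0.64 and 0.65) and fell in families 638, 710 and 1005 (-0.64, -0.73 and -0.49), and its average was -0.02. TC002893, annotated as part of the plasma membrane, rose in families 245 and 348 (1.05 and 2.08), and its average of 0.34 was also called (adjusted p = 8.76e-05). The widest spread of family responses was that of TC002209, also without annotation. In family 348 it stood at 0, 0, 0.0681 and 0.0762 cpm in the Control females, 2 of which held 1 read each, and at 28.5, 0.0812, 27.9 and 61.5 cpm in the Dry females, 1 of which was thus as low as the Control ones. The interaction of TC002209 was not called by limma-voom (adjusted p = 0.289) or without family 348 (adjusted p = 0.279). The serine-type endopeptidase gene TC005925 rose by 5.29 in family 245. The interaction of TC005925 had an adjusted p of 0.00952 and was lost without the females numbered 4 (adjusted p = 0.241), and also without family 245.

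Genes of chitin metabolism, which build and remodel the cuticle and the lining of the gut, responded in opposite directions in some families. Of 35 genes in that category, which the study had drawn from those raised by heat in these libraries, 34 passed the filter and 16 were called, against 23.0% of all genes. The list gives 11 genes that rose in family 348 and 0 that fell, 5 that rose and 0 that fell in family 245, and 0 that rose and 10 that fell in family 863. In family 1005 4 fell, and in families 432 and 710 1 each. None was called in the other 6 families. Over all genes the called shares in either direction were 8.31% in family 348, 2.72% in family 245, 5.89% in family 863 and 6.26% in family 1005, and 1.28% and 0.836% in families 432 and 710. The median response over the 34 genes was 0.541 in family 348, 0.385 in family 245 and -0.501 in family 863, where the medians over all genes were -0.0103, -0.00637 and 0.0432.

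TC003275, the most abundant of the 3 chitin genes with the smallest p-values, stood at 658, 1827, 1964 and 1552 cpm in the Control females of family 863 and at 169, 144, 228 and 207 cpm in its Dry females. The values of family 348 were 91.9, 169, 199 and 175 cpm in Control and 267, 641, 548 and 695 cpm in Dry. Neither family overlapped between conditions, and the log2 fold changes were -3.02 (SE 0.57, adjusted p = 0.000123) and 1.78 (SE 0.54, adjusted p = 0.0241). It also rose in family 245 by 2.30. TC004216 had the largest range of the 16 called genes, from -6.79 in family 863 to 3.77 in family 245. The interaction of TC004216 was not called without family 863 (adjusted p = 0.0712). TC004733 fell in families 710, 863 and 1005 (-1.21, -1.26 and -1.19) and rose in family 348 (1.44).

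**Figure D4:**
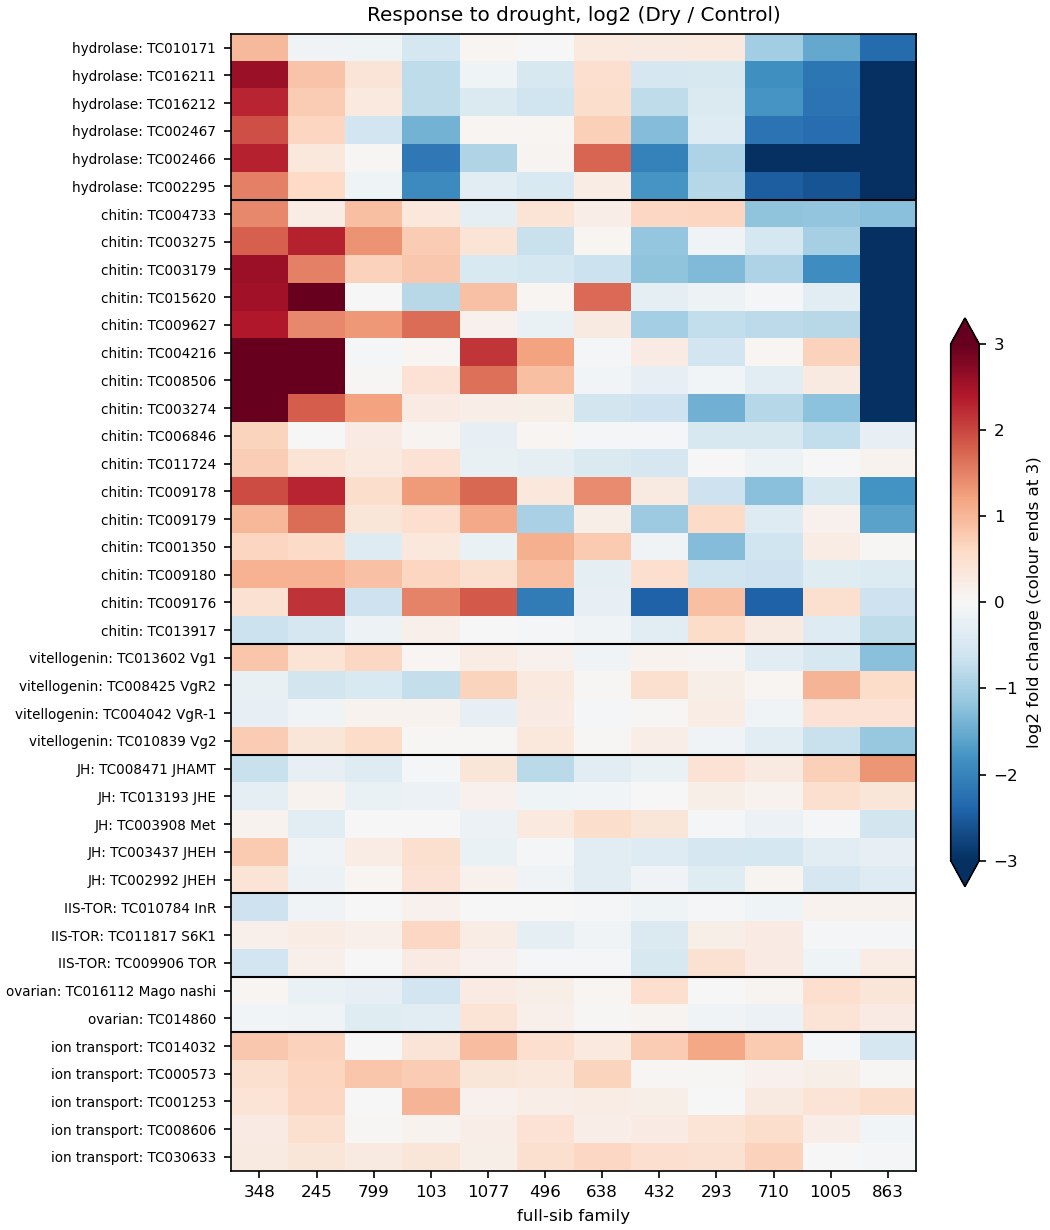
Log2 fold change (Dry against Control) in each of the 12 families, in columns ordered after their values, for the called members of each gene list together with Vg2 and all 5 ion transporter genes, in rows. Red is higher and blue lower in Dry, and colours end at 3 and -3. The hydrolases run from 0.97 to 2.60 in family 348 to -5.24 to -2.32 in family 863. The reproduction genes shown here stay within -1.25 and 1.31.

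Of the 56 genes that the study listed for reproduction, all passed the filter and 13 were called, or 3 of 6 vitellogenin related genes, 5 of 7 genes of juvenile hormone, 3 of 13 genes of the insulin and TOR pathways, 2 of 14 putative ovarian genes and 0 of 16 genes of ecdysone synthesis and action, against 23.0% of all genes. Of the 16 ecdysone genes 0 were called by edgeR's quasi-likelihood test and 0 had an unadjusted p under 0.05. DESeq2, limma-voom and edgeR's likelihood ratio test also called 0 of them. Their calls were less stable than those of the hydrolases. Of the 11 of them refitted under 31 alternatives, the call was kept in between 16 (TC014860) and 30 (InR). VgR2 and VgR-1 were lost without Dry female 1005-2 (adjusted p = 0.0586 and 0.0564), and TOR without Dry female 348-4 (adjusted p = 0.0501).

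Vg1 (TC013602) stood at 110200, 113100, 95760 and 158300 cpm in the Control females of family 863 and at 47060, 45930, 55100 and 55300 cpm in its Dry females, without overlap. In family 348 it stood at 43980, 58870, 89870 and 68470 cpm in Control and at 112800, 116300, 111200 and 116300 cpm in Dry, also without overlap. The log2 fold change was -1.25 (SE 0.31, adjusted p = 0.00569) in family 863. In family 348 it was 0.83 (SE 0.31), and Vg1 did not pass the test there (adjusted p = 0.0881). The interaction of Vg1 had an adjusted p of 0.0164 and kept its call in 21 of 31 other fits, whose adjusted p ran from 9.50e-05 to 0.694, the highest in the fit of all 4 conditions. Vg2 (TC010839), for which the interaction was just not called (adjusted p = 0.0544), fell in family 863 as well (-1.15), and its value was 0.77 in family 348. In family 863 Vg1 and Vg2 together went from 19.0% ± 3.01 (SD, n = 4) of the counts in Control to 10.9% ± 1.02 (SD, n = 4) in Dry. In family 348 they went from 13.4% ± 2.35 (SD, n = 4) to 19.6% ± 0.861 (SD, n = 4). With that share as a covariate 2538 genes had an interaction, 2282 of them among the 2720.

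The ovary and germ line markers had differences of the other sign in these families, but 0 of the 7 passed edgeR's quasi-likelihood test within family 863, 0 within family 348 and 2 within family 1005, and their sum was not tested. Over all genes 5.89%, 8.31% and 6.26% were called within families 863, 348 and 1005. The summed level of the markers went from a mean of 1220 cpm in Control to 1500 cpm in Dry in family 863 and from 1120 to 1360 cpm in family 1005, and from 1500 to 1320 cpm in family 348. In this sum 2 of the 7 genes had a called interaction, against 23.0% of all genes, both of them vitellogenin receptor genes. VgR2 (TC008425) rose by 1.01 in family 1005 (interaction adjusted p = 0.0280), and VgR-1 (TC004042) ran from -0.25 in family 348 to 0.43 in family 863 (adjusted p = 0.0307) without being called in any single family. Vasa (TC010103), piwi (TC008711) and spindle E (TC014516), which act in the germ line, had adjusted p-values of 0.284, 0.0914 and 0.129. The part of the amount of ovary or yolk production in the results of other genes was not tested.

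Juvenile hormone drives vitellogenesis in this beetle. JHAMT (TC008471), a methyltransferase of the last steps of its synthesis, rose in family 863 (1.31) and had a value of -0.81 in family 496 (interaction adjusted p = 0.00616). Its mean was low, at 2.44 cpm. The interaction of another gene named JHAMT, TC008469, was not called (adjusted p = 0.325). JHE (TC013193), an esterase that degrades the hormone, stood at 257, 315, 307 and 292 cpm in the Control females of family 1005 and at 352, 474, 369 and 442 cpm in the Dry females. The groups did not overlap, and the log2 fold change was 0.47 (SE 0.13, adjusted p = 0.0170; interaction adjusted p = 0.00943). JHEH (TC003437), an epoxide hydrolase that also degrades the hormone, rose in family 348 (0.78). Another gene named JHEH, TC002992, ran from -0.51 in family 1005 to 0.43 in family 103 (interaction adjusted p = 0.0490). Met (TC003908), the receptor, fell in family 863 (-0.55). Kr-h1B (TC012990), named for a factor induced by the receptor, rose by 1.44 in family 1005, but its interaction was not called (adjusted p = 0.0584).

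InR (TC010784), the insulin receptor that links feeding to growth and yolk production, responded in 1 family. In family 348 the Control females had 88.1, 97.0, 102 and 107 cpm and the Dry females 61.7, 69.7, 59.9 and 59.5 cpm, without overlap. The log2 fold change was -0.63 (SE 0.09, adjusted p = 7.08e-07), while the other families lay between -0.12 and 0.12. Without family 348 the interaction of InR was not called (adjusted p = 0.603), against 0.000180 with all families. TOR (TC009906), 1 of 2 genes of that name and a kinase that senses nutrients, also fell in family 348 (-0.58). The interaction of the other, TC005546, was not called (adjusted p = 0.113). Its responses ran from -0.16 in family 348 to 0.36 in family 1005. S6K1 (TC011817), a kinase downstream of TOR, rose in family 103 (0.62). Mago nashi (TC016112), an RNA-binding factor of the oocyte in Drosophila, ran from -0.56 in family 103 to 0.51 in family 1005 (interaction adjusted p = 0.0102), and no family was called alone.

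A group with estimates of 1 sign in most families was that of 5 active ion transmembrane transporters, also picked by the study for a higher average in Dry in these females. Estimates above 0 in most families follow in part from that choice and are not independent evidence of a direction. TC000573 was above 0 in all 12 families, from 0.03 in family 432 to 0.83 in family 799, and passed the test in families 103, 245 and 799. TC014032 ran from -0.49 in family 863 to 1.16 in family 293. These 2 of 5 had a called interaction (adjusted p = 0.0283 and 0.0172), and the other 3 did not (adjusted p between 0.0731 and 0.349). The called shares were 23.0% of all genes and 45.2% of the 491 genes with a called average. TC000573 kept its call in 22 and TC014032 in 26 of the 31 alternatives. All 5 estimates were above 0 in 9 of the 12 families, against 3 of 5 in family 799, 2 of 5 in family 863 and 4 of 5 in family 1005. Over all 11837 genes, between 5421 (family 799) and 6634 (family 863) estimates were above 0.

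At 37 °C the response to drought, Hot-Dry against Hot, differed among families in 546 of the 11837 genes (4.61%), and in 2233 at an unadjusted p under 0.05 (18.9%). With 1 sister number left out it was between 154 and 422 genes. These were other females from other vials. Of the 546 genes 383 were also called at 33 °C, which is 70.1% of the list at 37 °C and 14.1% of the list at 33 °C, and 35.5% of the 2720 genes had an unadjusted p under 0.05 at 37 °C. The difference itself, the family-by-drought-by-temperature interaction, was called in 2477 genes (20.9%), 1627 of them among the 2720. With 1 sister number left out it lay between 578 and 3631 genes. The three-way test reuses the counts at 33 °C by which the 2720 genes had been picked. The overlap of 1627 genes is therefore not independent evidence of a difference.

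Whether a family responded alike at both temperatures was asked gene by gene. For each gene the 12 family responses at 33 °C were correlated with the 12 at 37 °C. The median r was -0.116 over the 2720 genes, -0.109 over the 383 genes called at both temperatures and -0.106 over all genes tested, and the median Spearman rho was -0.119 over the 2720 genes. No gene passed the adjustment over all genes (0 for r and 0 for rho, permutation test with 100000 resamples, smallest adjusted p = 0.549 for r), and 604 genes (5.10%) had an unadjusted permutation p under 0.05 for r. Among the 2720 genes that share was 4.38%.

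The hydrolases lay above the median of all genes in this measure, with an r between 0.21 and 0.44 for the 6 genes (TC010171 and TC002295) and a median of 0.341. At 37 °C 0 of the 6 were called by edgeR's quasi-likelihood test, where 4.61% of all genes were (adjusted p between 0.161 and 0.723), 4 had an unadjusted p under 0.05, and DESeq2, limma-voom and edgeR's likelihood ratio test called 0, 0 and 1. All 6 had a called three-way interaction (adjusted p between 0.000231 and 0.0267), against 20.9% of all genes. That test reuses the counts at 33 °C by which the 6 had been picked, so it is not independent evidence of a difference. TC016211 stood at 32.4, 48.1 and 53.7 cpm in the Hot and at 30.6, 23.4 and 22.4 cpm in the Hot-Dry females of family 863, without overlap and with a smaller difference than at 33 °C. In family 348 the Hot females had 8.77, 22.2 and 20.0 cpm and the Hot-Dry females 36.5, 10.9, 14.6 and 34.7 cpm, which overlapped. Over the 12 families the responses of TC016211 at both temperatures had an r of 0.30 (permutation p = 0.352, adjusted p = 0.937) and a rho of 0.20 (permutation p = 0.542, adjusted p = 0.976), and without the 2 families farthest from the median the r of TC016211 was -0.01. The response of Vg1 (TC013602) in family 863 was -1.21 at 33 °C and 1.35 at 37 °C on the log2 cpm scale, and 1 of the 3 Hot females there had 3410 cpm. Its r was -0.38 (permutation p = 0.218, adjusted p = 0.925) and its rho -0.27 (permutation p = 0.404, adjusted p = 0.970), and without 2 families its r was -0.18. The interaction of Vg1 was not called at 37 °C (adjusted p = 0.949).

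**Figure D5:**
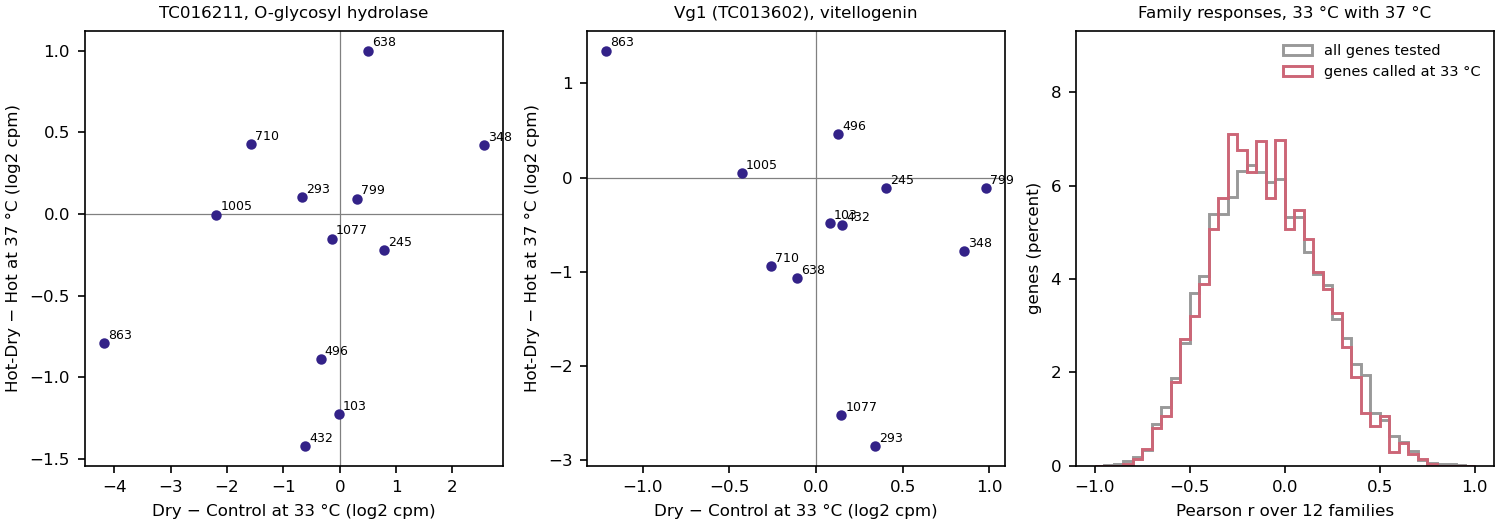
Family responses to drought at 33 °C (horizontal axis) and 37 °C (vertical axis), as differences of family means in log2 cpm, for TC016211 and Vg1 (TC013602), with 1 point per family. On the right is the distribution over genes of the Pearson r between both sets of 12 responses, for all genes tested (grey) and for genes called at 33 °C (red): both are centred just below 0, at -0.106 and -0.116.

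Among genes called at both temperatures, TC016415 and TC004370 had a called three-way interaction (adjusted p = 1.16e-10 and 5.10e-09). Both had been picked for a small p at 37 °C among genes called at 33 °C. The three-way test reuses those counts, so a difference was favoured in advance. TC016415, annotated with the synthesis of small molecules and organic acids, rose in family 348 at 33 °C (1.75, interaction adjusted p = 2.72e-05), and its responses at both temperatures had an r of -0.25. TC004370, annotated with catalytic activity, rose in family 348 by 1.03 and had an r of -0.15. Without family 348 the interaction of TC004370 was not called (adjusted p = 0.0944). At 37 °C 5 of the 34 chitin genes were called, TC003275 and TC004733 among them (adjusted p = 0.00271 and 0.00609), against 4.61% of all genes. DESeq2 and edgeR's likelihood ratio test called 10 each and limma-voom 5. The study had drawn that list in part from these Hot females. Of the 5 ion transporter genes 0 were called. At 37 °C 1 of the 6 vitellogenin related genes and 0 genes of the other reproduction lists were called. The 1 gene was VgR-2 (TC008596), called at 37 °C alone (adjusted p = 0.00864, against 0.529 at 33 °C, three-way adjusted p = 0.0456).

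Genes that moved together over the families at 33 °C did so at 37 °C in some cases. The median response of the 6 hydrolases was set against that of 5 genes over the 12 families at each temperature, 10 relations in all, chosen after the values at 33 °C had been seen and given here as a description. With TC003275 of chitin metabolism the r was 0.801 at 33 °C (rho 0.839) and 0.873 at 37 °C (rho 0.860). Without the 2 families farthest from the median it was 0.589 and 0.808. With InR it was -0.663 at 33 °C (rho -0.455) and -0.660 at 37 °C (rho -0.636), and without 2 families -0.206 and -0.429. With VgR-1 it was -0.731 and -0.656 (rho -0.699 and -0.657), and without 2 families -0.444 and -0.462. For Vg1 and JHE the r over all 12 families was near 0 at 37 °C. With Vg1 the r was 0.859 and -0.0905 (rho 0.671 and -0.140), and without 2 families 0.586 and -0.00535. With JHE it was -0.778 and 0.0569 (rho -0.741 and 0.0280), and without 2 families -0.632 and 0.391. In each relation both values come from the same libraries and vials.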

How the data were processed

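Whole adult females were sequenced singly (single-end reads, mRNA libraries; the run of each female is not given in the sources used here). The authors trimmed the reads, aligned them with STAR 2.5 to the Tcas3 assembly and counted reads per gene with featureCounts, and the deposited values are raw counts for 17078 genes. Strand and multi-mapping settings are not given in the sources used here. All columns matched a labelled female.

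Genes were kept where 5 or more of the 95 females exceeded 0.5 cpm. Counts were normalized by TMM and fitted in edgeR 4.0.16 (R 4.3.3) with family, drought and their product. The interaction was tested jointly with the quasi-likelihood F test, adjusted by Benjamini-Hochberg over all 11837 genes and called at adjusted p ≤ 0.05. The family responses came from the same fit with 24 group means, each adjusted over all genes. The 37 °C fit used the same genes, and the three-way fit the females of all 4 conditions. Likeness of responses used family means of log2 cpm with a prior count of 2 and 100000 permutations. Permutation tests took both directions. Scripts were tested on simulated data. Alternatives used DESeq2 1.42.0 and limma 3.58.1, other normalizations, filters, covariates, a replicate block and left-out females or families.

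The members and lists were chosen with earlier results of these data known. Named genes were the 10 smallest p-values and 5 widest spreads among called genes with at least 5 cpm, the gene farthest from the others in each family, the 5 smallest at 37 °C, both vitellogenins and up to 3 called genes per list. Others were named after their values were seen. Gene names and terms are those of the study. The RefSeq table matched 1 of the 17078 identifiers, so lists built on product names could not be used.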

Additional observations from a re-analysis of the deposited data

Results flagged for a closer look

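In 51 checks of 1 measure (the vitellogenin share or the level of a named gene) in 4 females of 1 family and condition, which reuse the same females, 3 found a female far from the other 3 by Dixon's test at 95%, and chance alone flags about 1 in 20. Control female 710-1 had 30.1% of her counts on Vg1 and Vg2, while the other Control females of family 710 lay between 19.8% and 21.5%. Control female 799-2 had 3.24%, against 19.2% to 20.7% in the other 3. Dry female 863-4 had 41.1 cpm of TC012574, against 13.6 to 16.1 cpm in the others, and all 4 values were below those of the Control females of family 863.

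For 6 genes the family pattern of the drought response differed between 33 °C and 37 °C by the three-way test (edgeR's quasi-likelihood F test). The adjusted p was 1.18e-07 for TC012574, 1.45e-05 for TC001160, 3.24e-05 for TC003275, 0.000231 for TC016211, 0.0104 for InR (TC010784) and 0.0447 for JHE (TC013193). Vg1 and TC002209, whose values by female are also given above, did not pass (adjusted p = 0.524 and 0.182). Over all genes 20.9% passed. The genes had been named with their values at 33 °C known, and the test reuses those counts, so a difference was favoured in advance.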

How the results depend on the processing

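The 2720 genes with an interaction at 33 °C fell to 1233 at an adjusted p of 0.01 and to 1519 with the sister number as a replicate block (1476 of them among the 2720). Sisters of the same number did not deviate together (mean r -0.00682 over 47 Control and Dry pairs, 8 of them above 0.1, against 0.00221 over 141 pairs of unlike numbers), so that the numbers do not pair the females. The other normalizations, filters, tests and covariates, the fit of all 4 conditions and an adjusted p of 0.1 gave between 2327 and 3916 genes, of which DESeq2 gave 3500 (2702 among the 2720) and limma-voom 2715 (2420). Leaving out 1 number gave between 836 and 3777 genes, 1 family between 1823 and 2946, and 1 female between 2252 and 3479. Without the 2 Control females of low vitellogenin share, an alternative chosen after seeing the data, it was 2878 (2487). At 37 °C the 546 genes became 1060 with DESeq2, 957 with edgeR's likelihood ratio test, 258 and 901 at adjusted p of 0.01 and 0.1, and 318 with the replicate block. They lay between 154 and 422 without 1 number, and between 315 and 651 without 1 family. The 2477 three-way genes lay between 578 and 3631 without 1 number. The block gave 1699 of them, and limma-voom and relative log expression gave 2410 and 2436. The calls within families, 3333 in sum, lay between 1048 and 6009 without 1 number, and at 3094 and 3285 with limma-voom and relative log expression. The median r between temperatures, -0.116, lay between -0.154 and -0.0391 without 1 number. The causes were not tested. Of 174 alternatives for these results 154 stayed within 1.5 times the count or within the spread, and 20 did not. Of the 174, 95 were the fits that left out 1 female. All of these stayed, so the 20 are among the remaining alternatives. A vial per family and condition, and about 4 females in it, limit what can be told apart.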
